A study of Mus musculus with 36 samples.

Results

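The genes described here encode neuronal microtubule-binding proteins outside the MAP2/tau family: the MAP1 proteins Map1a, Map1b and Map1s, Map6, the doublecortin proteins Dcx and Dclk1, and the stathmins Stmn1, Stmn2 and Stmn3. They were chosen by symbol, 9 of the 25239 genes in the expression table, and all 9 were found. RNA was sequenced from N2a cells, a mouse neuroblastoma line, that had been transfected with plasmids for RfxCas13d, an RNA-guided RNase, or for dRfxCas13d, in which the RNase activity is dead. The 9 crRNA conditions of each protein were no crRNA, an NT crRNA that has no target, and targeting crRNAs 1 and 8 against Sik3-S, 1 and 3 against Map2, 4 and 6 against Mapt, and 5 against Rbfox3. All 18 groups share the transient transfection and the sorting of GFP-positive cells 48 h later, and each holds 2 libraries. The Rbfox3 crRNA is number 5 in the sample titles and number 6 in other labels of the same samples. Nothing in the labels says that the 2 libraries of a group came from separate cultures, so p-values measure the spread between libraries, which may be technical. None of the 9 genes is a target of any crRNA, and the comparison asks how these untargeted transcripts, long and short, stood when the active nuclease was given a targeting crRNA.

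Microtubules are hollow polymers of tubulin that keep growing and shrinking. Structural microtubule-associated proteins bind along the polymer and make it more stable. In contrast, stathmins bind free tubulin dimers and favour shrinkage. In neurons both kinds act together while axons and dendrites grow out, and doublecortin is known as a marker of migrating young neurons.

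The spacers are shown so that they can be compared with the transcripts of these genes. They are the study's designed 22-nt sequences, and capitals mark the 17 nt that the Mapt crRNAs share:
NT crRNA: tcaccagaagcgtaccatactc
Sik3-S crRNA 1: caagcactgccaggtgccacat
Sik3-S crRNA 8: gtcgctctgtgaatcaggcatc
Map2 crRNA 1: actctcaattttcacacgtcca
Map2 crRNA 3: gagcattgtcaagtgagccaac
Mapt crRNA 4: cttagATAAAAGAAAAGGCAGA
Mapt crRNA 6: ATAAAAGAAAAGGCAGAggtcc
Rbfox3 crRNA 5: aaatccatcctgatacacgacc

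Each targeting spacer was complementary to an annotated transcript of its own target with 0 mismatches (GENCODE vM21, GRCm38). The Map2 sites lie in coding exon 14 at chr1:66438258-66438279 and chr1:66438316-66438337, and the Mapt sites overlap in the 3′ UTR at chr11:104329649-104329675. The Sik3-S sites lie in the 3′ UTR of a Sik3 transcript at chr9:46202074-46202095 and chr9:46202652-46202673, and the Rbfox3 site lies in a coding exon at chr11:118496369-118496390. In the transcripts of the 9 genes, the closest stretch to each spacer, the NT spacer included, had 5 to 7 mismatches. The closest of all was a Map1b stretch that differs from the complement of Map2 crRNA 1 at 5 positions, printed here with the complementary bases in capitals.
Map1b, chr13:99440994-99441015, minus strand: TGGAaGTGTGAAAAggGAcAtT

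That stretch lies in the 3′ UTR of a 2669-nt Map1b transcript and not in the 11808-nt transcript. With Map2 crRNA 1 the log2 fold change of Map1b was −0.34 ± 0.07 (SE), and with the other targeting crRNAs it ran from −0.62 to −0.29. FPKM per gene do not separate the transcripts, and whether this stretch was cleaved was not tested.

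Map2, Mapt and Sik3 fitted their labels, with log2 fold changes of −3.33 to −2.64 with their own crRNAs. They also fell, by less, with the other targeting crRNAs: Mapt at −1.24 to −0.67, Sik3 at −0.86 to −0.47 and Map2 at −0.70 to −0.43. Rbfox3 was at no more than 0.113 FPKM in any library, so its level cannot bear on the label of its crRNA. Neuroblastoma markers were plain: Tubb3 stood at 293 to 447 FPKM and Hand2 at 141 to 216. Of the 20 neuronal markers, 3 never reached 1 FPKM, among them Nefl and Th. Summed fibroblast, macrophage and glial markers stayed at or under 5.81 FPKM in every library, with 7 of 7, 7 of 7 and 8 of 8 markers above 0 somewhere. With targeting crRNAs the fibroblast sum was 2.06, 2.69 and 3.23 FPKM (lowest, median, highest) with dRfxCas13d and 2.93, 3.54 and 4.47 FPKM with RfxCas13d, with 4 of the 7 markers under 1 FPKM everywhere. The macrophage sum was 1.47, 2.40 and 3.62 FPKM against 2.70, 3.80 and 5.23 FPKM, with 6 of 7 under 1 FPKM. The glial sum was 3.06, 3.73 and 4.92 FPKM against 2.68, 3.11 and 3.77 FPKM, with 5 of 8 under 1 FPKM. So the fibroblast and macrophage medians were higher and the glial median lower with RfxCas13d, with overlapping ranges, and their part in the results was not tested. Liver transcripts summed to 1.76, 2.47 and 7.92 FPKM with dRfxCas13d and to 0.265, 0.508 and 1.15 FPKM with RfxCas13d under these crRNAs. These ranges did not overlap, so the libraries of the nucleases also differed in this respect, and its part in the results was not tested. Replicate 1 of RfxCas13d with NT crRNA stood apart, with liver transcripts summing to 458 FPKM (Alb 263), against at most 7.92 in any other library. Results of the members that use RfxCas13d with NT crRNA are therefore given with and without it. The estimated depth was 8690000 to 12170000 fragments for dRfxCas13d and 10370000 to 16550000 for RfxCas13d.

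Expression is given in FPKM, fragments per kilobase of exon scaled to the fragments in the library, which allows levels of different genes to be compared per length. Over the 18 dRfxCas13d libraries Map1b, the earliest structural MAP of growing axons, was highest, with a lowest, median and highest value of 318, 374.5 and 461 FPKM. Stmn1, the ubiquitous stathmin, followed at 133, 144.5 and 161 FPKM. Stmn3 stood at 106, 128 and 139.8 FPKM and Stmn2, a stathmin anchored to membranes and found in growth cones, at 86.8, 98.9 and 106 FPKM. The ranges of Stmn1 and Stmn3 overlapped, and those of Stmn3 and Stmn2 touched.

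The remaining genes were lower and their ranges did not overlap in this order. Map1s, a widely expressed MAP1 protein, had a median of 24.1 FPKM. Map6, which protects microtubules against cold, had 15.4 FPKM, and Map1a, the large MAP1 protein of mature neurons, had 10.3 FPKM. Dclk1, a kinase with doublecortin domains, had 3.79 FPKM.

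Dcx was at or next to 0. It was above 0 in 9 of 18 dRfxCas13d and 4 of 18 RfxCas13d libraries, with a highest value of 0.041 FPKM, whereas 1 fragment is worth about 0.00690 FPKM at the median depth and 3 fragments 0.0207 FPKM if all annotated exons are counted. It was under the filter on low values, and no change of Dcx could be measured at this depth. The other 8 genes were tested.

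**Figure D1:**
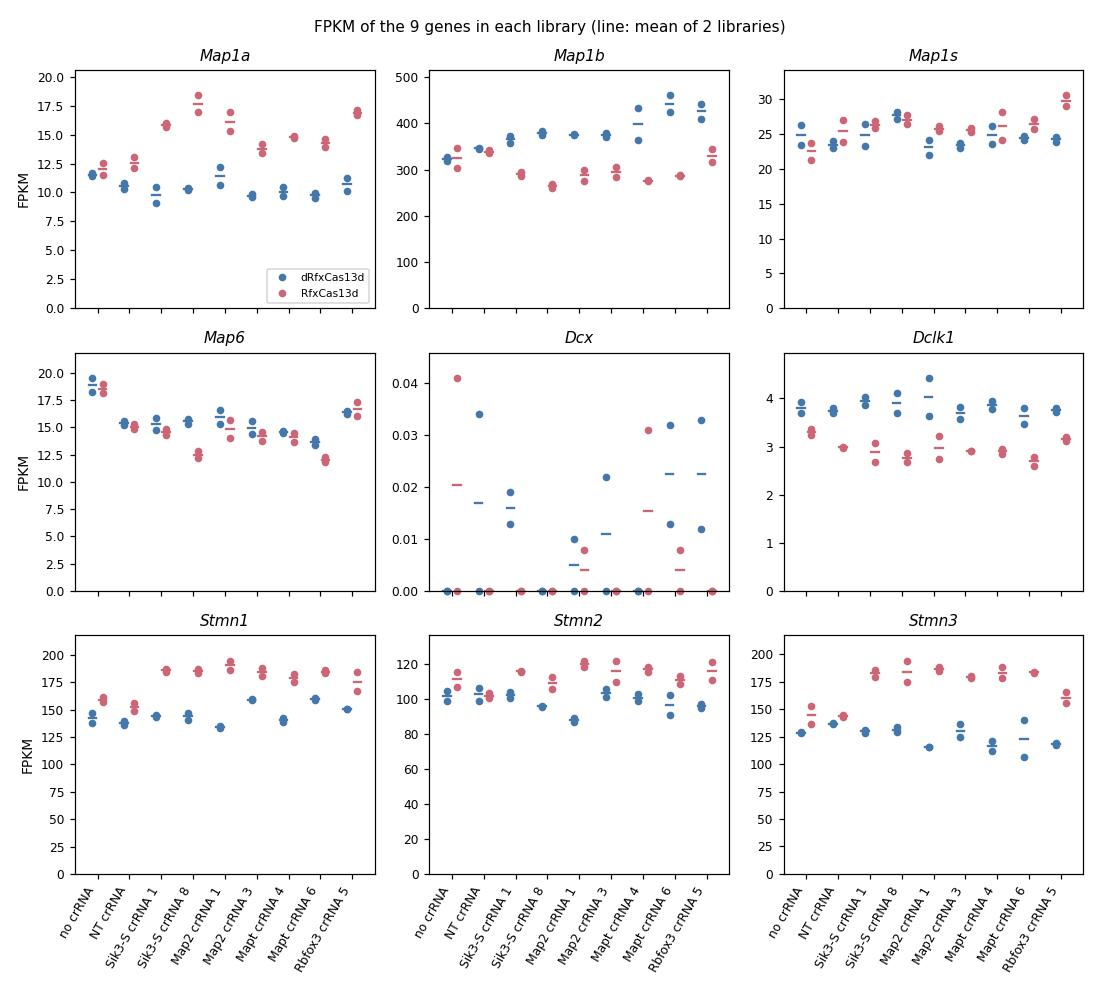
FPKM of each of the 9 genes (vertical axis, from 0) in each library, for no crRNA, NT crRNA and the 7 targeting crRNAs (horizontal axis), with points for libraries, lines for means of 2 libraries, blue for dRfxCas13d and red for RfxCas13d. With targeting crRNAs the red points of Map1a, Stmn1, Stmn2 and Stmn3 lay above all blue points of those crRNAs, and those of Map1b and Dclk1 lay below.

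Over the mean of the 7 targeting crRNAs all 8 tested genes differed between the nucleases. Map1a, Map1s and the 3 stathmins rose, and Map1b, Map6 and Dclk1 fell (limma on log2(FPKM + 1), Benjamini-Hochberg adjusted p under 0.05). This counts 5 higher and 3 lower of 8, against a background of 40.6% of the 13293 tested genes higher and 38.1% lower. On this scale no member reached a fold change of 1.5, although Map1a came close to it at 0.58 (log2) and passed that fold with a pseudocount of 0.5 (0.60) or 0.1 (0.62). Of all genes, 7.30% were called with at least that fold upwards and 5.23% downwards.

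Map1a rose most. Its 14 dRfxCas13d libraries with a targeting crRNA had a lowest, median and highest value of 9.11, 10.2 and 12.2 FPKM, and the 14 RfxCas13d libraries 13.4, 15.5 and 18.4 FPKM. The groups did not overlap. The log2 fold change was 0.58 ± 0.03 (SE; adjusted p = 5.87e-15). By crRNA it ran from 0.47 with Map2 crRNA 3 to 0.76 with Sik3-S crRNA 8 and passed the test with all 7.

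Map1b moved the other way. Its dRfxCas13d libraries lay at 358, 378 and 461 FPKM (lowest, median, highest) and its RfxCas13d libraries at 259, 286 and 345 FPKM, again with no overlap. The log2 fold change was −0.42 ± 0.03 (SE; adjusted p = 7.24e-13). All 7 single comparisons passed, from −0.62 with Mapt crRNA 6 to −0.29 with Sik3-S crRNA 1. With Mapt crRNA 6 the group mean was 443 FPKM with dRfxCas13d, the highest of that nuclease, and 287 FPKM with RfxCas13d. With Sik3-S crRNA 1 it was 365 FPKM with dRfxCas13d and 291 FPKM with RfxCas13d. Quantile normalization moved the mean value to −0.70, and removing the trend of fold change on transcript length left −0.06. With that trend removed the value turned above 0 with Sik3-S crRNA 1 (0.06) and Map2 crRNA 1 (0.03), and of the 7 single calls only that with Mapt crRNA 6 stayed (−0.19).

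Map1s and Map6 changed little. For Map1s, dRfxCas13d libraries lay at 22.0, 24.2 and 28.2 FPKM and RfxCas13d libraries at 24.2, 26.3 and 30.6 FPKM (lowest, median, highest), so that the nucleases overlapped. The log2 fold change was 0.13 ± 0.03 (SE; adjusted p = 0.000212), with 2 of 7 single comparisons passing, Map2 crRNA 1 (0.20) and Rbfox3 crRNA 5 (0.29). The former call was lost without either RfxCas13d library or replicate 2 of dRfxCas13d with that crRNA (0.13 to 0.22), with only the 4 libraries of the comparison, with FPKM as deposited (0.15) and after quantile normalization (0.14). Map6 lay at 13.4, 15.3 and 16.6 FPKM with dRfxCas13d and at 11.8, 14.2 and 17.3 FPKM with RfxCas13d. Its log2 fold change was −0.08 ± 0.02 (SE; adjusted p = 0.00201), and among single crRNAs it was called lower with Sik3-S crRNA 8 (−0.26) and Mapt crRNA 6 (−0.16). With the length trend removed the mean turned to 0.10 and the value with Mapt crRNA 6 to 0.05, and the call with Sik3-S crRNA 8 was lost (−0.07). The call with Mapt crRNA 6 was also lost without replicate 1 of either nuclease (−0.14 and −0.13) and with only the 4 libraries of the comparison.

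Of the doublecortin proteins, Dclk1 fell, although its sign turned with the length trend removed (0.06). It went from 3.48, 3.80 and 4.42 FPKM to 2.60, 2.89 and 3.22 FPKM (lowest, median, highest of 14), without overlap. The log2 fold change was −0.29 ± 0.03 (SE; adjusted p = 1.07e-08), and with a pseudocount of 0.1 in place of 1 it was −0.37. The fall passed the test with 6 of 7 crRNAs, and with none of them in a fit to the 4 libraries compared. The call with Map2 crRNA 1 was lost without replicate 1 of either nuclease (−0.21 and −0.19), and that with Map2 crRNA 3 without either RfxCas13d library or replicate 2 of dRfxCas13d (−0.26 to −0.22). The value with Rbfox3 crRNA 5 was −0.20 (adjusted p = 0.0525), and it passed after quantile normalization (−0.22) and without any 1 of the 4 libraries with Map2 crRNA 1.

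The 3 stathmins rose with each of the 7 targeting crRNAs, except that quantile normalization turned the sign of Stmn2 with Sik3-S crRNA 1 and Sik3-S crRNA 8 and of Stmn1 with Mapt crRNA 6. Stmn3 was at 106, 123 and 139.8 FPKM with dRfxCas13d and at 155.5, 182 and 194 FPKM with RfxCas13d, a log2 fold change of 0.56 ± 0.03 (SE; adjusted p = 1.95e-14). Stmn1 went from 133, 146 and 161 FPKM to 167, 184.5 and 194 FPKM, a log2 fold change of 0.34 ± 0.02 (SE; adjusted p = 2.45e-15). Stmn2 went from 86.8, 98.0 and 105.8 FPKM to 105.9, 115.5 and 122 FPKM, a log2 fold change of 0.26 ± 0.02 (SE; adjusted p = 9.33e-11). In none of the 3 did the nucleases overlap, although for Stmn2 the gap was narrow, from 105.8 to 105.9 FPKM. Map2 crRNA 1 gave the largest value for each stathmin: 0.73 for Stmn3, 0.55 for Stmn1 and 0.49 for Stmn2. With this crRNA dRfxCas13d had its lowest group mean of each, 115.5, 134 and 88.0 FPKM in the same order. RfxCas13d had its highest there, 187, 190 and 120 FPKM. Under quantile normalization the log2 fold changes over the mean of the 7 crRNAs shrank to 0.32, 0.08 and 0.06.

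Thus 4 of the 8 genes had all 14 RfxCas13d libraries above all 14 dRfxCas13d libraries, as did 11.8% of the tested genes, and 2 had them all below, as did 13.4%. Called higher with each of the 7 crRNAs were the same 4 genes, Map1a and the stathmins (13.1% of all genes), and called lower with each was Map1b (12.9%). The call of Stmn2 was lost with Map2 crRNA 3 without replicate 1 of either nuclease (0.09 and 0.14), and with Mapt crRNA 6 without replicate 1 of dRfxCas13d (0.13). Quantile normalization left Stmn2 called with Map2 crRNA 1 and Rbfox3 crRNA 5 alone and ended the calls of Stmn1 with Rbfox3 crRNA 5, Mapt crRNA 6 and Map2 crRNA 3, while Map1a and Stmn3 stayed called with all 7. Removing the length trend ended the same 3 calls of Stmn1.

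Taken crRNA by crRNA, Dclk1 joined Map1b among the genes called lower in all but 1 case, and Map1s and Map6 entered with 2 crRNAs each. With Sik3-S crRNA 1 the calls were 4 higher and 2 lower of 8, against 26.4% and 25.4% of all tested genes. Sik3-S crRNA 8 gave 4 higher and 3 lower, Map6 included, against 26.1% and 25.5%. Map2 crRNA 1 gave 5 higher, Map1s included, and 2 lower, against 27.1% and 25.7%, and Map2 crRNA 3 gave 4 and 2, against 23.2% and 22.9%. Both Mapt crRNAs gave 4 higher. Number 4 gave 2 lower, against 27.9% and 26.8%, and number 6 gave 3 lower, Map6 included, against 27.5% and 26.6%. Rbfox3 crRNA 5 gave 5 higher, Map1s included, and 1 lower, Map1b, against 26.4% and 24.8%.

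**Figure D2:**
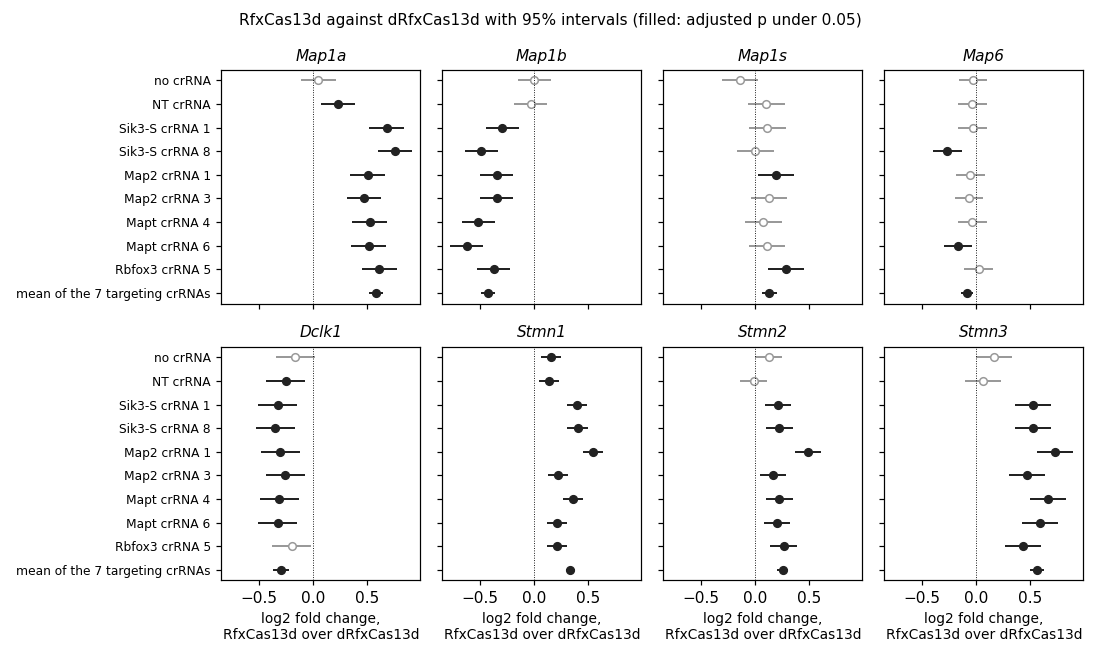
Log2 fold change of RfxCas13d over dRfxCas13d (horizontal axis) for each tested gene, without crRNA, with NT crRNA, with each targeting crRNA and over the mean of 7 (vertical axis), where bars are 95% intervals and filled points have an adjusted p under 0.05. Map1a and the stathmins lay right of 0 and Map1b and Dclk1 left of 0 with every targeting crRNA.

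Length was taken as the sum of annotated exons, and 5000 nt or more was called long. By this measure Map1b (15846 nt), Dclk1 (15296 nt), Dcx (12647 nt), Map1a (12166 nt), Map6 (9152 nt), Map1s (7963 nt) and Stmn2 (5602 nt) were long, and Stmn1 (1922 nt) and Stmn3 (1136 nt) short. Of the 6 long genes tested 3 rose and 3 fell, with a median log2 fold change of 0.03, against −0.13 over all 5084 long genes. Map1s, Map6 and Stmn2 belong to the class from 5000 to under 10000 nt, where 29.7% of all genes rose and 51.2% fell. Map1a, Map1b and Dclk1 belong to that of 10000 nt or more, where 8.76% rose and 82.7% fell. Both short genes rose, with a median of 0.45, against 0.12 over all 8106 short genes, and in their own class from 1000 to under 2000 nt 58.1% of genes rose and 21.05% fell.

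The split depends on how length is defined. By the longest single transcript, Map1s (4635 nt), Map6 (4920 nt) and Stmn2 (3413 nt) became short. The median of the 3 long genes then left was −0.29, the value of Dclk1, with Map1b lower and Map1a higher. That of the 5 short genes was 0.26, the value of Stmn2. Medians of all genes were not computed by this definition.

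Among the 1141 tested genes with at least 10000 nt, the median log2 fold change was −0.31, and 82.7% fell and 8.76% rose. Map1b and Dclk1 were near that median, with 31.8% and 52.8% of the class below them. Map1a was far from it: 99.6% of the class lay below Map1a and 0.351% above. Map6 was at the median of its own class, from 5000 to under 10000 nt, where Map1s had 77.0% and Stmn2 88.6% of 3943 genes below it. In the class from 1000 to under 2000 nt, with a median of 0.21 over 1563 genes, Stmn1 had 62.3% below it and Stmn3 79.5%.

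When the trend of fold change on length was removed, Map1a stood at 0.86 and the fall of Dclk1 turned to 0.06 and that of Map6 to 0.10. The 3 stathmins stayed above 0, at 0.15 for Stmn1, 0.28 for Stmn2 and 0.35 for Stmn3.

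**Figure D3:**
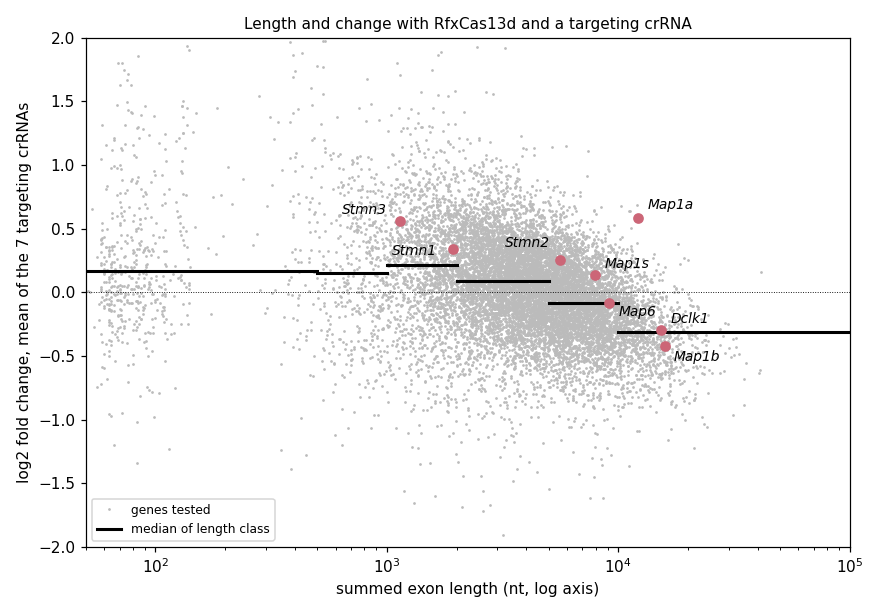
Summed exon length (horizontal log axis, nt) and log2 fold change averaged across the targeting crRNAs (vertical axis) of 13190 genes with a known length, 19 of which lie outside the axis. Black lines are medians of length classes and red points the 8 tested genes. Map1a, at 0.58, lies far above the median of its class, at −0.31.

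Base composition was read from the longest transcript. Map1a has 54.9% GC, 19.3% U and 38.1 UU pairs per kb, and Map1b, of nearly the same longest transcript (11825 and 11808 nt), has 47.6% GC, 23.1% U and 65.0 UU pairs per kb. Dclk1 has 26.8% U, and Stmn2, which rose, has 27.7% U. The longest Stmn2 transcript (3413 nt) is annotated as non-coding, so its value is not that of a coding transcript. The longest run of U was 26 nt in Map1b and 5 nt in Map1a. Stmn1 has 24.1% U and 68.9 UU pairs per kb, and Stmn3 24.1% U and 56.3 UU pairs per kb, and both rose. Map1s has 20.8% U and Map6 21.1% U. Dcx is the richest in U, at 31.5%. Whether base composition bears on the changes was not tested.

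All 9 genes are annotated as protein coding in GRCm38. Map1a lies at chr2:121289600-121310832 and Stmn3 at chr2:181306459-181314500. Map1b is at chr13:99421446-99516540, Map1s at chr8:70905932-70917529 and Map6 at chr7:99267447-99337137. Dclk1 is at chr3:55242364-55539068, Stmn2 at chr3:8509360-8561606, Stmn1 at chr4:134468320-134473843 and Dcx at chrX:143855842-143933311. Exons of Map1a overlap those of Ppip5k1 on the other strand over 272 nt, those of Dclk1 overlap non-coding genes on the other strand over 114 nt, and those of Stmn1 overlap a small RNA gene on the same strand over 66 nt. Whether reads were counted by strand is not given in the sources used here, so reads in these stretches cannot be told apart.

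With no crRNA 1 of the 8 genes differed between the nucleases: Stmn1, at 138 and 147 FPKM with dRfxCas13d and 157 and 162 FPKM with RfxCas13d (log2 fold change 0.16 ± 0.04, SE; adjusted p = 0.0243), against 2.52% of all genes higher. None was lower, against 2.84%. At an unadjusted p under 0.05 Stmn2 and Stmn3 were added, where 18.5% of all genes passed. The call of Stmn1 was lost without replicate 1 of dRfxCas13d or without either RfxCas13d library (0.11 to 0.20).

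With NT crRNA Map1a and Stmn1 were higher with RfxCas13d, against 11.0% of all genes, and Dclk1 was lower, against 11.3%. Map1a was at 10.3 and 10.8 FPKM with dRfxCas13d and at 12.1 and 13.04 FPKM with RfxCas13d (log2 fold change 0.23 ± 0.07, SE; adjusted p = 0.0252). Stmn1 was at 136 and 139.6 FPKM and at 149 and 156 FPKM (0.14 ± 0.04, SE; adjusted p = 0.0148), and Dclk1 at 3.69 and 3.79 FPKM and at 2.98 and 3.00 FPKM (−0.25 ± 0.08, SE; adjusted p = 0.0323). Without the library rich in liver transcripts the values were 0.28, 0.10 and −0.26, and only Map1a passed. Leaving out 1 of the other 3 libraries of this comparison left 0 or 1 call.

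Whether a targeting crRNA gave a larger difference than NT crRNA was tested as an interaction. It passed for 5 genes, higher for Map1a (0.35 ± 0.08), Stmn1 (0.20 ± 0.04), Stmn2 (0.27 ± 0.06) and Stmn3 (0.50 ± 0.08), and lower for Map1b (−0.39 ± 0.07), in log2 units ± SE. The background was 15.6% higher and 15.0% lower. Adjusted p ran from 7.77e-05 for Stmn3 to 0.00165 for Map1a, and all 5 passed without any 1 library, including the one rich in liver transcripts. For Dclk1 the interaction was −0.04, with a 95% interval from −0.22 to 0.14, so a difference of the size seen for Map1b is outside it. For Map1s it was 0.03 (−0.14 to 0.19) and for Map6 −0.05 (−0.18 to 0.08). Without the library rich in liver transcripts Dclk1 stood at −0.04, Map1s at −0.06 and Map6 at −0.03, none of which passed. After quantile normalization the interaction passed for 3 genes, with Stmn1 at −0.01 and Stmn2 at 0.12 no longer called. With the length trend removed it also passed for 3, with Map1b at −0.15 and Stmn1 at 0.06 no longer called. The interaction between NT crRNA and no crRNA passed for 0 of 8 genes with limma and for 1, Map1s, at an unadjusted p under 0.05, where 1.36% of all genes were higher and 1.17% lower after adjustment and 17.2% passed before it. Without the library rich in liver transcripts no call was added, and Map1s stood at 0.33 in place of 0.25.

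Within RfxCas13d alone 4 members were higher and 1 lower with targeting crRNAs than with NT crRNA. Their 7 targeting groups against NT crRNA differed for Map1a by 0.31, Stmn1 by 0.29, Stmn2 by 0.20, Stmn3 by 0.35 and Map1b by −0.20 (log2; 20.7% of all genes higher, 20.3% lower). Dclk1 differed by −0.02 there. The Map1b call was lost without replicate 2 of RfxCas13d with NT crRNA (−0.19), and its value was 0.000576 with the length trend removed. Without replicate 1, the library rich in liver transcripts, all 5 calls stayed, with Map1a at 0.26, Stmn1 at 0.33, Stmn2 at 0.22, Stmn3 at 0.36 and Map1b at −0.21. Quantile normalization moved Stmn1 to 0.10, Stmn3 to 0.18 and Stmn2 to 0.05, where the call of Stmn2 was lost, and Map1b to −0.40. These comparisons and the interaction share the NT libraries.

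Map2 and Mapt encode the classic neuronal MAPs. Set against the other targeting crRNAs, the Map2 crRNAs gave 0 calls of 8 with limma, and 2 (Map1a and Stmn2) at an unadjusted p under 0.05, where 0.105% of all genes were higher and 0.0376% lower, and 12.6% passed before adjustment. The Mapt crRNAs also gave 0 calls with limma, where 1.93% of all genes were higher and 2.32% lower. With Mapt crRNAs 4 and 6 the group means of Map1b were 398 and 443 FPKM with dRfxCas13d and 275 and 287 FPKM with RfxCas13d. With the other targeting crRNAs they were 365 to 426 FPKM and 263.5 to 330 FPKM. At an unadjusted p under 0.05 the Mapt crRNAs gave 1, Map1b (−0.20 ± 0.06, adjusted p = 0.0513), where 20.3% of all genes passed. The Map1b value lay next to the threshold and passed it when any 1 of 8 libraries was left out. These were replicate 1 of dRfxCas13d with Mapt crRNA 4, replicate 2 with Mapt crRNA 6 and replicate 1 with Rbfox3 crRNA 5, both RfxCas13d libraries without crRNA, and replicate 1 of RfxCas13d with Map2 crRNA 1, Map2 crRNA 3 and Rbfox3 crRNA 5 (−0.27 to −0.20). Without replicate 2 of dRfxCas13d with Mapt crRNA 6, Stmn3 passed too (0.19, against 0.09 with it).

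The dRfxCas13d libraries also differed by crRNA. Map1b was at 345 and 347 FPKM with dRfxCas13d and NT crRNA, at 425 and 461 FPKM with Mapt crRNA 6 and at 409.6 and 443 FPKM with Rbfox3 crRNA 5, log2 differences of 0.37 (adjusted p = 0.000537) and 0.30 (adjusted p = 0.00546). The latter call was lost without replicate 1 of dRfxCas13d with Rbfox3 crRNA 5 (0.24). Stmn1 was higher than with NT crRNA under Map2 crRNA 3 (0.21), Mapt crRNA 6 (0.23) and Rbfox3 crRNA 5 (0.13). Leaving out replicate 2 with NT crRNA or either library with Map2 crRNA 3 ended the call with that crRNA, and leaving out any of its 4 libraries ended the call with Rbfox3 crRNA 5. Stmn2 was lower under Map2 crRNA 1 (−0.24, adjusted p = 0.0455), a call that most alternatives lost. Thus Mapt crRNA 6 and Rbfox3 crRNA 5 gave 2 members higher and 0 lower each, where 11.1% and 11.2% of all genes were higher and lower with the former and 6.17% and 7.71% with the latter. Map2 crRNA 3 gave 1 higher and 0 lower (1.32% and 1.59% of all genes), and Map2 crRNA 1 gave 0 higher and 1 lower (0.128% and 0.557%). With Sik3-S crRNA 1, Sik3-S crRNA 8 and Mapt crRNA 4 no member passed against NT crRNA with limma. Of all genes 0.0150% were higher and 0.0226% lower with the first, 1.47% and 1.99% with the second, and 4.12% and 4.06% with the third. In this order 0, 1 (Map1s) and 2 (Map1b, Stmn3) members had an unadjusted p under 0.05, against 9.51%, 17.6% and 23.3% of all genes.

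Map6 stood highest without crRNA. Without crRNA it stood at 18.2 and 19.5 FPKM with dRfxCas13d and at 18.1 and 18.9 FPKM with RfxCas13d. All 4 values lay above every library with a crRNA, of which the highest was 17.3 FPKM. The share of all genes that separate in this way was not counted. With dRfxCas13d the log2 difference of NT crRNA from no crRNA was −0.27 ± 0.06 (SE; adjusted p = 0.0123), 1 member lower and 0 higher, where 1.91% of all genes were lower and 1.76% higher. It was a call lost without replicate 1 of dRfxCas13d or without either NT library. The lowest group means, 13.7 FPKM for dRfxCas13d and 12.0 FPKM for RfxCas13d, both came with Mapt crRNA 6.

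Over the 36 libraries the genes most like Map1a were Marveld1 (Pearson r = 0.951) and Ppp1r15b (0.949), and Ncor1 (0.965) was among those most like Map1b. Nedd8 (0.969) and Eif5a (0.968) were most like Stmn3, Atp5md (0.949) and Ptma (0.946) most like Stmn1, and Lsm8 (0.897) and Ywhab (0.892) most like Stmn2. For Dclk1 they were Cpd (0.920) and Afdn (0.918), for Map6 Avl9 (0.871) and Col4a2 (0.861), and for Map1s Kif26a (0.807) and Snhg10 (0.733). The stathmins had r of 0.839 to 0.892 with each other, and Map1a and Map1b −0.765. The points share the split of the libraries by nuclease, so these values are descriptions.

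In lists of other genes acting on microtubules, over the mean of the 7 targeting crRNAs, the background of 40.6% higher and 38.1% lower again applies. Of 14 tested relatives and other MAPs 4 rose and 7 fell. Map7, which recruits kinesin-1 to microtubules, fell by 1.11 on the log2 scale, while Tppp3, a tubulin-binding protein, rose by 0.42. Of 18 plus-end and minus-end proteins 7 rose and 11 fell, among them the rescue factors Clasp1 (−0.44) and Clasp2 (−0.40) and the tip-tracking Clip1 (−0.57). Of 24 genes for severing and tubulin modification 8 rose, such as the detyrosinating peptidase gene Vash1 (0.49). Another 13 fell, such as the deglutamylase gene Agtpbp1 (−0.71) and the depolymerizing kinesin gene Kif2a (−0.43). With NT crRNA, all libraries included, Map7 was at −0.74, Tppp3 −0.03, Clasp1 −0.13, Clasp2 −0.24, Clip1 −0.21, Vash1 0.36, Agtpbp1 −0.25 and Kif2a −0.15. Without crRNA only Clip1 was called among these named genes (−0.22, adjusted p = 0.0306 with limma).

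Map1lc3a (0.23), Gabarapl2 (0.42) and Gabarap (0.13), of the LC3 family whose founding protein was found as a light chain bound to MAP1 proteins, were among 4 of 5 that rose, with 0 lower. Of 18 kinases and phosphatase subunits that act on these proteins 3 rose and 11 fell, among them Rock2 (−0.65) and Rock1 (−0.62), while the scaffold gene Mapk8ip1 rose (0.33). In the MAP2/tau family, Map4, which no crRNA targeted, fell by 0.45 on the log2 scale. The neuronal marker list split into 9 higher and 7 lower of 17, with Syp at 0.41 and Syt1 at −0.79. Among markers of other cells, Cd68 (0.86), Col1a1 (0.47) and Pdgfra (0.36) rose, and Mbp (−0.15) and the liver transcript Apoa1 (−1.10, adjusted p = 0.00390 with limma) fell, and their part in the changes of the members was not tested. In bulk RNA, fewer cells of a kind and less RNA per cell cannot be told apart.

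**Figure D4:**
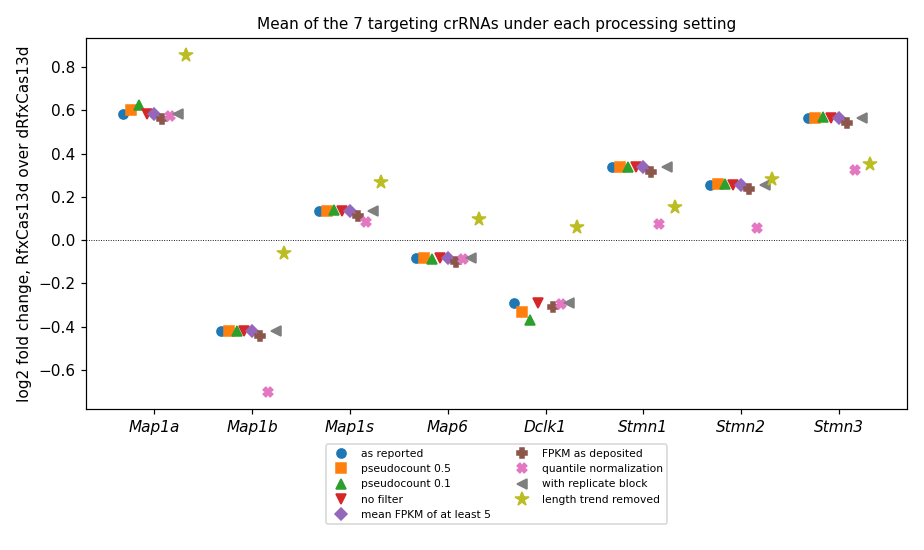
Log2 fold change of RfxCas13d over dRfxCas13d over the mean of the 7 targeting crRNAs (vertical axis) for each tested gene under 9 processing settings (symbols). Removing the length trend moved Map1b to −0.06 and took Dclk1 and Map6 above 0, quantile normalization lowered the stathmins and Map1b, and the other settings moved each gene by less than 0.1.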

How the data were processed

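Per the labels and the paper's methods, the authors trimmed the reads, mapped them to mm10 (Subread), counted reads per gene (featureCounts) and deposited FPKM, rounded to 3 decimals, for 25239 genes. Tool versions, annotation and strand setting: not given in the sources used here. Counts were not used here, so no count model was run. All sample columns were used, and 0 pairs of libraries were identical.

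FPKM were divided by median-of-ratios factors (0.976 to 1.03) and put on the scale log2(FPKM + 1). The test was limma (version 3.58.1, R version 4.3.3) over all 18 groups, with an intensity trend and Benjamini-Hochberg adjustment over 13293 genes with at least 1 FPKM in at least 2 of 36 libraries. A fold change on this scale understates changes of low genes. The standard error of the mean over 7 crRNAs covers the spread of libraries within groups, not that of crRNAs. Depth was estimated from 1645 single-exon genes, where 95.3 to 98.5% of low values were whole within 0.1 fragments. Exon lengths (GENCODE vM21) covered 98.0% of symbols. The scripts were tested on simulated data.

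The members and gene lists were chosen with earlier results of these data known. Named were all members, up to 3 genes of each other list with the smallest p over the mean of the 7 targeting crRNAs, and the 2 genes with the highest correlation to each member among those with a mean of at least 5 FPKM. A gene named by these rules is not reported here. Alternatives were pseudocounts of 0.5 and 0.1, no filter, a mean FPKM of at least 5, unscaled FPKM, quantile normalization, only the 4 libraries of a comparison, a replicate term, removal of the length trend (lowess span 0.3), length by the longest transcript, and each library left out. Spacers came from the study's supplementary list.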

Additional observations from a re-analysis of the deposited data

Results flagged for a closer look

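The difference between RfxCas13d and dRfxCas13d was not the same with targeting crRNAs as with NT crRNA for 5 of the 8 genes, by a limma interaction test adjusted over 13293 genes. The interaction was 0.3486 on the log2 scale for Map1a (adjusted p = 0.00165), −0.3907 for Map1b (0.000355), 0.197 for Stmn1 (0.00139), 0.2662 for Stmn2 (0.00144) and 0.4958 for Stmn3 (7.77e-05). Of all tested genes, 15.6% were called higher and 15.0% lower in this test. It passed for 3 of the members after quantile normalization and for 3 with the length trend removed. All 5 values use the same NT libraries. Without the RfxCas13d library rich in liver transcripts the values were 0.30, −0.40, 0.23, 0.29 and 0.51.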

How the results depend on the processing

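Of 8393 values of single genes under an alternative, 8193 were counted as unchanged, and 125 lost and 41 gained the threshold. Another 34 changed sign and were called in the main fit, the alternative or both. Values counted as unchanged kept their direction and side of the threshold, or changed sign without being called in either fit. Map1b with NT crRNA, at −0.03 and at 0.09 with the length trend removed, was of the latter kind. The signs listed next leave such uncalled values out. The causes were not tested beyond what the settings' construction shows. With the length trend removed, signs turned for Dclk1 with Sik3-S crRNA 1 (0.0177), Sik3-S crRNA 8 (0.0295), Map2 crRNA 1 (0.0621), Map2 crRNA 3 (0.0374), Mapt crRNA 4 (0.0845), Mapt crRNA 6 (0.0872), the mean of 7 (0.0587) and within RfxCas13d (0.18). They turned for Map6 with Sik3-S crRNA 1 (0.15), Mapt crRNA 4 (0.17), Mapt crRNA 6 (0.0470) and the mean (0.0970), and for Map1b with Sik3-S crRNA 1 (0.0629), Map2 crRNA 1 (0.0316) and within RfxCas13d (0.000576). Quantile normalization turned Stmn2 with Sik3-S crRNA 1 (−0.0108) and Sik3-S crRNA 8 (−0.00279), and Stmn1 with Mapt crRNA 6 (−0.0567) and in the interaction with NT crRNA (−0.00842).

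Numbers of genes called moved as follows. With only 4 libraries, calls went from 1 to 0 without crRNA, 3 to 0 with NT crRNA and 7 to 4 with Mapt crRNA 6, and within dRfxCas13d to 0 for NT crRNA and for Rbfox3 crRNA 5, Mapt crRNA 6, Map2 crRNA 1 and Map2 crRNA 3. With the length trend removed they went to 1 with NT crRNA, 4 with Sik3-S crRNA 8 and 3 for the interaction with NT crRNA, which quantile normalization also left at 3. A mean FPKM of at least 5 gave 1 for the Mapt interaction and 1 for dRfxCas13d with Mapt crRNA 4. Without the filter dRfxCas13d with Rbfox3 crRNA 5 had 1. For dRfxCas13d with Map2 crRNA 1 the 1 call went to 0 without the filter, without scaling, after quantile normalization and with the replicate block.

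Leaving out 1 library gave 0 to 1 calls without crRNA, 0 to 3 with NT crRNA, 0 to 2 for the Mapt interaction, and within dRfxCas13d 0 to 1 for NT crRNA, 0 to 2 for Map2 crRNA 1, 0 to 1 for Map2 crRNA 3, 0 to 1 for Mapt crRNA 4 and 0 to 3 for Rbfox3 crRNA 5. It left all 8 calls over the mean of the 7 targeting crRNAs.

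Replicate numbers did not pair the libraries (correlations of deviations −0.03 to 0.06), and with the replicate block 183 of 184 values kept their call. With the block and the length trend removed, the values named above for the length trend were the same. Depth limits Dcx alone, and FPKM without counts keep no error of single values.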
